A study of Homo sapiens with 2 samples.

Results

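In B2B cells, 3000 of the 25326 chromatin regions that were open in both ATAC-seq replicates lay in gene deserts, which is 11.8% (95% Wilson interval 11.5 to 12.2). A region was taken as a gene-desert region when its summit, the position of strongest signal, lay outside every protein-coding gene and more than 100 kb from the nearest canonical transcription start site (TSS) of such a gene in GENCODE. The cells, known in full as BEAS-2B, were grown from human bronchial epithelium and immortalized, and both samples are wild type (WT) with no treatment named. ATAC-seq uses the Tn5 transposase to insert adapters into accessible DNA, and each of the 2 biological replicates has its own peak list. With 1 condition there were no groups to compare. The results hold for 1 immortalized line, which may differ from bronchial epithelium.

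Gene deserts are long stretches of sequence without protein-coding genes. They are known to carry distant enhancers, which contact a promoter through chromatin looping and are often found around genes that control development. Open chromatin far from genes also marks promoters of long noncoding RNAs (lncRNAs), insulator sites bound by CTCF and copies of repeated DNA. AP-1, a dimer of JUN and FOS family proteins, binds the letters TGACTCA and is known for occupying enhancers that respond to growth and stress signals.

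The lists hold 28685 and 36109 peaks on chromosomes 1 to 22 and X, with a median of 35 and 30 fragments at the summit. The weakest listed peaks had 16 and 13 fragments, so a gene-desert site below that signal was not detectable at this depth. As a check of the label, a promoter peak in both replicates was found for 1 of 12 epithelial markers, KRT18, and for 10 of 12 mesenchymal markers, among them VIM, FN1 and ZEB1. The other epithelial markers, CDH1 and EPCAM among them, had no promoter peak in both replicates. By promoter peaks the cells thus matched the mesenchymal list more than the epithelial one. The part of this state of the cells in the gene-desert results was not tested.

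Sequences around the summits show what the gene-desert regions were made of. All are reference sequence of hg38 on the plus strand and span 50 bp on each side of the summit unless stated. The first set holds the 5 regions of highest mean fold enrichment with TGACTCA inside this span, in capitals. A match on the minus strand reads TGAGTCA. The set is shown because this motif was the most frequent of those searched.
ADGRF1, chr6:47168333-47168433: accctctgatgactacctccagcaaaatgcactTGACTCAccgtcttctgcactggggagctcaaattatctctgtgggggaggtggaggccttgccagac
ARRDC4, chr15:98155064-98155164: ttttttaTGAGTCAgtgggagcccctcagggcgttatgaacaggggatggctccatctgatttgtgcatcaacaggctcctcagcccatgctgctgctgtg
NOG, chr17:56699610-56699710: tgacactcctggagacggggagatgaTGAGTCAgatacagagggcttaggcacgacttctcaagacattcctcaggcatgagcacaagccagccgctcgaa
MAMLD1, chrX:150201142-150201242: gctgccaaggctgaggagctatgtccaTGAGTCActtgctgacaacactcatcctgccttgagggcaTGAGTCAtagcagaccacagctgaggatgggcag
SOX9, chr17:71976172-71976272: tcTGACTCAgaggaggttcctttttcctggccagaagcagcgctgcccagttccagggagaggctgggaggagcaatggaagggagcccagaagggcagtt

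Values are fold enrichments, the signal at the summit over its local background. Each region is named here by the gene with the nearest TSS, which does not say that it acts on that gene. Of the 5 sequences, the one near MAMLD1 carries the motif at 2 places. Near NOG, which encodes the BMP antagonist noggin, the value was 23.3 and 22.97 in replicates 1 and 2. That of the region near SOX9, a transcription factor of cartilage and epithelial progenitors, was 20 and 19.2. Replicate 1 was slightly the higher in both. That all 4 values were far above the medians of the gene-desert regions given below follows from the choice of the set.

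The second set has the most TGACTCA matches within 100 bp of the summit and shows 100 bp on each side. The region near TACR3 holds 4 matches in a tandem repeat, and the region near CAPN13 holds 3 that are spread over unrelated sequence.
TACR3, chr4:103498325-103498525: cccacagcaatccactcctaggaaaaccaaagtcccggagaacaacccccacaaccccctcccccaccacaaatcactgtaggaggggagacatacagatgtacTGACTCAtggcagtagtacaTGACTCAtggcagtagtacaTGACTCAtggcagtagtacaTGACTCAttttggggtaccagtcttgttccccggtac
CAPN13, chr2:30665037-30665237: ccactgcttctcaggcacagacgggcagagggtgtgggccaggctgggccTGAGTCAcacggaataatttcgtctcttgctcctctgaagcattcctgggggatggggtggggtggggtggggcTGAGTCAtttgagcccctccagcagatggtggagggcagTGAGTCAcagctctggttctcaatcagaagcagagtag

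Near TACR3 the fold enrichment was only 3.64 and 5.89, whereas near CAPN13 it was 13.9 and 15.4. More matches in a window did not come with a higher signal in this pair, which was chosen after the values were seen. The region near TACR3 was multi-copy by the threshold given below, and that near CAPN13 was single-copy. Over all gene-desert regions, the medians in replicates 1 and 2 were 6.06 and 7.48 without a match. They were 6.41 and 8.16 with at least 1 match, and 7.103 and 8.84 with at least 2 (185 regions). With at least 3 matches (17 regions) they were lower again, at 6.41 and 7.70.

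The third set shows a pair of strong single-copy regions with the CTCF core inside the printed span, a pattern of 12 bases of which 4 may be any base, in capitals on either strand. The pair was chosen after the values were seen. CTCF is the main insulator protein of vertebrate chromatin.
FGF18, chr5:171596659-171596759: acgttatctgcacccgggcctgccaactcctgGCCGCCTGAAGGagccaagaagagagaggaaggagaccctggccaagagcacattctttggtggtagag
DPYD, chr1:98054235-98054335: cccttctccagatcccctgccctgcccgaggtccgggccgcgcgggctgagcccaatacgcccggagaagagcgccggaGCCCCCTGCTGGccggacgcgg

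The region near FGF18, a fibroblast growth factor gene, had a fold enrichment of 16.2 and 12.7, and that near DPYD had 13.7 and 13.4. The fourth set shows sequences that recur among the regions. The first pair belongs to a family of regions in which CATTCC recurs, in capitals on either strand, and the second group is a family whose members each hold TGACTCA, also in capitals.
ZNF33B, chr10:41859888-41859988: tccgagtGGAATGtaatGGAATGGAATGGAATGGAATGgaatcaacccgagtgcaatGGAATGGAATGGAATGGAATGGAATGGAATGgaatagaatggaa
EMB, chr5:49601596-49601696: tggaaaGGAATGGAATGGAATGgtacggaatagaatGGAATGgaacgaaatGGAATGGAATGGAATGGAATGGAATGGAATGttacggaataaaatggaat
SPATA31A6, chr9:43270494-43270594: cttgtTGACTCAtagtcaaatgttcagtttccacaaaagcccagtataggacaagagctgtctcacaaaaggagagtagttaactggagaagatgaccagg
AQP7B, chr2:94262679-94262779: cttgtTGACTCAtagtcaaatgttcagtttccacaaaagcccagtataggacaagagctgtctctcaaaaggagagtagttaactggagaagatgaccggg

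The gene-desert regions were close in strength to the nearer intergenic and intronic regions. Replicate 1 had a median fold enrichment of 6.24 (95% order-statistic interval 6.06 to 6.24) and replicate 2 one of 7.70 (7.48 to 7.70), or 6.97 ± 1.04 (SD, n = 2). Intergenic regions within 100 kb of a TSS had medians of 6.06 and 7.70, and intronic regions 5.89 and 7.48. The gene-desert median was thus above the intronic one in each replicate and above the nearer intergenic one in replicate 1 only. Regions within 1 kb of a TSS stood higher in each, at 7.45 and 8.92. All classes come from the same 2 libraries, and no test between classes was made.

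Fold enrichment here is the number of fragments at the summit over that of the local background, each with 1 added, and fragments can be solved from it together with the p of the peak. The medians over nearer intergenic summits were 35 and 35 fragments, and over intronic summits 34 and 34. Those over gene-desert summits were close to these, at 36 and 35 fragments, against genome-wide backgrounds of 4.77 and 3.41. The quartiles were 28 and 50 fragments in replicate 1, and 26 and 49 in replicate 2. Their median width was 327 bp, against 342 bp for the nearer intergenic and 326 bp for the intronic regions. In 2130 regions (71.0%) the summits of both replicates lay within 50 bp of each other. Across regions, which are not independent replicates, the fold enrichment of the replicates had a Spearman correlation of 0.791.

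**Figure D1:**
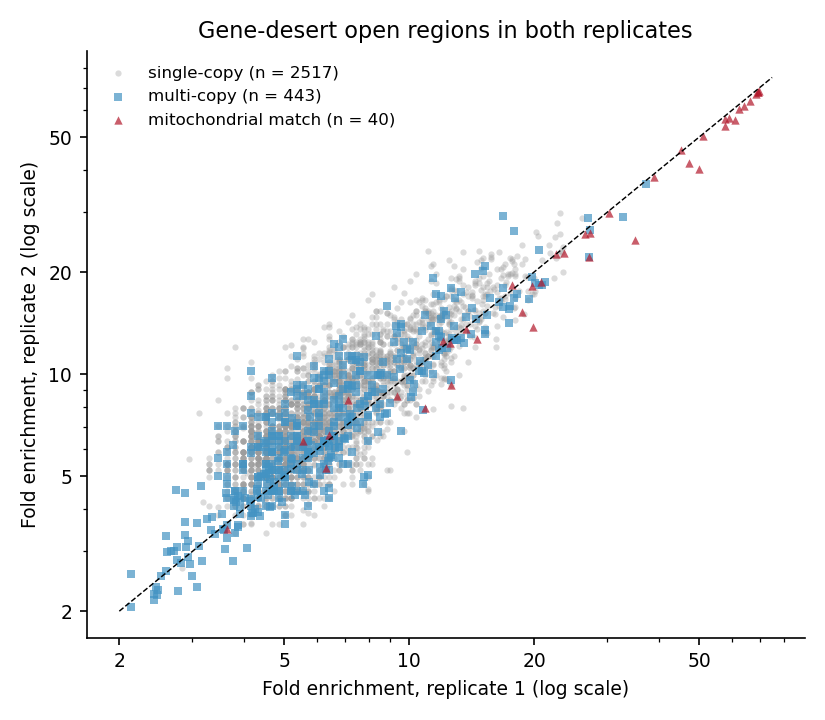
Fold enrichment of the 3000 gene-desert regions in replicate 1 (x) and replicate 2 (y), both on log scales, with 1 point per region and a dashed line of equal values. Grey points are single-copy sequence, blue squares are multi-copy sequence, and red triangles are the 40 regions that match mitochondrial DNA, whatever their copy number, which start at 3.64 and 3.50 and hold each of the 10 highest means, 57.1 and above.

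Peaks in gene deserts recurred in the other replicate at least as often as the nearer intergenic peaks, and less often than peaks within 1 kb of a TSS. This was computed on each list before the requirement of a peak in both. Of 3375 gene-desert peaks in replicate 1, 91.1% overlapped a peak of replicate 2 (Wilson interval 90.1 to 92.0), beside 92.3% of all peaks in that list. The nearer intergenic peaks gave 91.0%, a difference of 0.0774 percentage points (Newcombe interval −1.18 to 1.3), so the classes could not be told apart. Of 4305 gene-desert peaks in replicate 2, 70.4% had a counterpart (69.0 to 71.7), beside 72.1% of all peaks. There the nearer intergenic peaks gave 66.2%, and the difference of 4.20 points (2.44 to 5.95) was larger than its counting error. Peaks within 1 kb of a TSS gave 94.5% in replicate 1 and 82.6% in replicate 2. The gene-desert peaks without a counterpart were the weaker ones, with medians of 4.33 and 4.98 against 6.06 and 7.62. Gene-desert peaks made up 11.8% of one list and 11.9% of the other.

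The position rule takes in 967 Mb, which is 33.2% of the sequenced bases of chromosomes 1 to 22 and X. The gene-desert regions therefore numbered 3.10 per Mb (exact Poisson interval 2.99 to 3.22). This was lower than the 7.27 per Mb of intergenic sequence within 100 kb (7.06 to 7.48) and the 5.83 per Mb of gene bodies (5.70 to 5.97), while sequence within 1 kb of a TSS held 276 per Mb. These intervals cover counting error only, as do the other intervals given here. The bases counted were not filtered for copy number, also not under the densities of single-copy regions given below.

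Gene-desert regions were also more scattered. Their median distance to a TSS was 229 kb, with quartiles of 147 and 437 kb and a maximum of 5.37 Mb. The nearest other open region of any class lay at a median of 30.8 kb (27.9 to 34.3), against 16 kb for the nearer intergenic and 15.4 kb for the intronic regions. Even so, 904 of them (30.1%) had another open region within 10 kb, which compares with 38.9% and 41.0%.

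Chromosomes differed in density. Chromosome 17 had 5.70 regions per Mb of desert, chromosome 15 had 5.03 and chromosome 9 had 4.82. By single-copy regions alone chromosomes 17 and 15 had 4.72 and 4.12 per Mb, and chromosome 9, at 3.41, was below chromosomes 6 (3.87), 20 (3.73) and 5 (3.72). Chromosome 5 held the most regions, 314, followed by chromosome 2 with 305. At the other end, the X chromosome had 0.567 per Mb, chromosome 18 had 1.22, and chromosome 19 had 1 region in 6.91 Mb. By single-copy regions alone chromosome 18, at 1.08, was above chromosomes 16 (0.832) and 22 (1.03). The X chromosome and chromosome 18 were also the lowest outside the deserts, with 5.09 and 7.40 other open regions per Mb. The desert density was thus not uniform, and the gene-rich chromosome 19 was at the bottom although its other open regions numbered 13.3 per Mb.

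Copy number of the sequence set a part of the gene-desert regions apart. A region was called single-copy when at least 90% of the 31-letter words within 100 bp of its summit occur once on chromosomes 1 to 22 and X, a threshold chosen after the data were seen. Of the gene-desert regions 2529 passed, or 84.3%, beside 93.2% of all open regions. The other 471 (15.7%, 14.4 to 17.0) compare with 12.3% of the nearer intergenic regions, a difference of 3.40 points (1.81 to 5.03), and with 5.55% of the intronic regions, a difference of 10.2 points (8.76 to 11.6).

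Multi-copy regions were no stronger at the median. Replicate 1 gave them 6.06 (5.72 to 6.39) and replicate 2 gave 6.80 (6.34 to 7.48), against 6.24 and 7.70 for the single-copy regions. Their fragments at the summit were higher, 42 and 43 against 35 and 34. The replicates ranked the multi-copy regions alike, with a Spearman correlation of 0.875 across regions against 0.773 for single-copy ones.

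A match to mitochondrial DNA was found at 40 gene-desert regions (1.33%, 0.981 to 1.81), against 0.631% of the nearer intergenic regions, a difference of 0.702 points (0.256 to 1.22). Their medians stood at 26.8 and 23.8. All of the 10 gene-desert regions with the highest mean fold enrichment were among them, as were 19 of the highest 25, and only 2 of those 25 were single-copy without a match. At these 40 regions replicate 1 had a median of 1.48 times the fragments of replicate 2, against 1.05 times at single-copy regions, and the part of mitochondrial reads in this was not tested. The highest was on chromosome 7 near CNTNAP2 at chr7:145997247-145997519, with 69.8 and 68.4 in the replicates. It barely exceeded the matches near CSNK1G3 (69.4 and 67.9) and FSTL5 (69.2 and 67.8). Their fragments in replicate 1 were 16796 and 11486, against 95196 near CNTNAP2, so at this level fold enrichment hardly separated the regions. In replicate 1 the nearer intergenic regions reached 69.4 and the intronic regions 69.8.

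With those set aside, the 10 highest mean fold enrichments held 5 single-copy and 5 multi-copy regions. The strongest single-copy region lay 180 kb from the TSS of IL12B, which encodes a subunit of the cytokines IL-12 and IL-23, at chr5:159510310-159510732, with 26.1 in replicate 1 and 28.9 in replicate 2. Next came a region 891 kb from ENSG00000285566, toward the protocadherin gene PCDH9, at chr13:64723665-64724163 with 23.04 and 29.9. A region 126 kb from the adhesion receptor gene ADGRF1, printed above, had 22.7 and 27.9. The last 2 were both on chromosome 13, one 817 kb from the bile acid transporter gene SLC10A2 with 23.04 and 25.8, and one 547 kb from SLITRK5, a neuronal membrane protein gene, with 22.5 and 25.4. Replicate 2 was the higher in all 5, in the direction of the median over all gene-desert regions.

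The 5 multi-copy regions in this list held words that recur in the genome. That on chromosome 3 toward PROS1 (chr3:93470293-93470878) had 37.2 and 36.4, with 3213 and 2952 fragments and a GC content of 22.4%. Those at chr5:49666078-49666344 and chr10:41859808-41860070, the second of them printed above, belonged to the CATTCC family and had 32.7 and 29.1, and 27.3 and 26.5. Those near LIPI on chromosome 21 (26.9 and 28.9) and near FOXD4L5 on chromosome 9 (27.1 and 22.2) sat within 100 bp of a lncRNA TSS.

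Similarity between windows gave families. In 471 gene-desert regions, 15.7%, this same window aligned to that of another open region over at least 100 bp, against 11.0% of the nearer intergenic and 5.41% of the intronic regions. These are not the same regions as the 471 multi-copy ones, although the counts are equal, since some of them are single-copy. The largest family in the deserts was the CATTCC one, with 98 of its 102 regions there, spread over 10 chromosomes and with 28 on chromosome 1. A median of 3.5 non-overlapping CATTCC copies on either strand lay in a window, fewer than in the strong regions printed, the median GC content was 39.3%, and the fold enrichment was low at 4.55 in each replicate. None of the 98 was single-copy.

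A family of 10 gene-desert regions, on 5 chromosomes, held TGACTCA in every window. It is the one printed above near SPATA31A6 and AQP7B, a median of 7.02% of the words in its windows occur once, and its fold enrichments were 7.88 and 10.4 at the median. These 10 share their sequence and are not independent of each other. By contrast, 22 of 24 gene-desert regions in another family were single-copy, with a median of 99.4% of words that occur once. Its fold enrichments were 7.02 and 8.27 at the median, and 8 of the 24 held TGACTCA. A family of 12 regions with a GC content of 76.6%, 9 of them on chromosome 5, had medians of 14.04 in both replicates. Among the 11 families with at least 7 gene-desert regions, only one made of mitochondrial matches had higher medians, 20.8 and 18.7.

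Of the 21 motifs searched at gene-desert regions, the AP-1 motif was the most frequent apart from its own looser spelling. TGACTCA on either strand lay within 100 bp of the summit of 1087 regions, or 36.2% (34.5 to 38.0), beside 20.5% of all open regions. Flanking windows, centred 1000 bp from the summits, held it in 3.25%. Of these regions, 185 held at least 2 matches and 17 at least 3. Matches within the window lay at a median of 38 bp from the summit, and 64.8% of them within 50 bp.

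**Figure D2:**
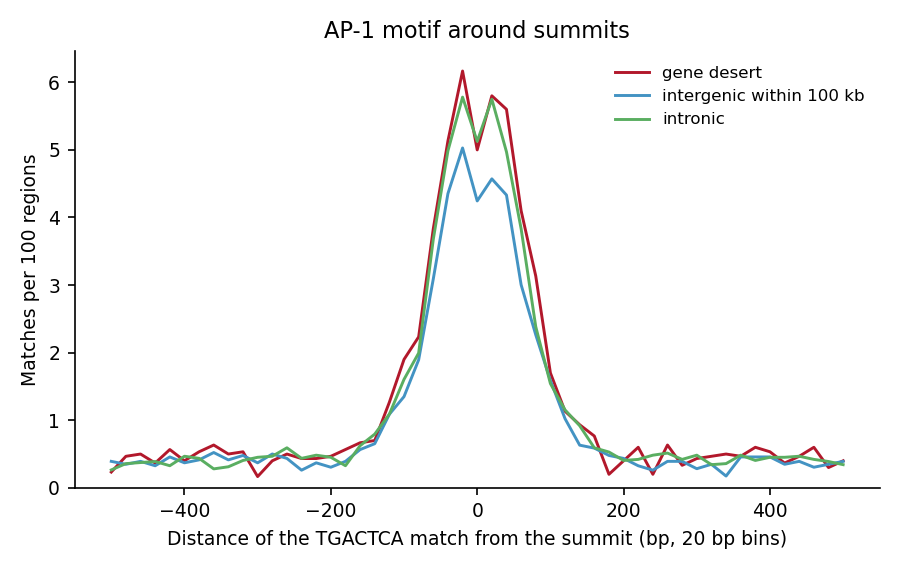
Matches to TGACTCA per 100 regions (y) by their distance from the summit in bp (x), in 20 bp bins, for gene-desert, nearer intergenic and intronic open regions. In the gene-desert regions the curve rises from about 0.483 in the outer bins to 6.17 in the highest bin, and stands at 5 in the bin centred on the summit.

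This share was higher than near genes. Of the intergenic regions within 100 kb of a TSS, 29.4% held the motif, 6.83 points less than in the deserts (Newcombe interval 4.66 to 8.99). In the list of replicate 1 alone the difference was 6.63 points (4.61 to 8.65) and in that of replicate 2 alone 5.82 points (4.06 to 7.58). Intronic regions, at 34.7%, differed from the deserts by 1.49 points (−0.580 to 3.57), which is within counting error, although among single-copy regions the difference was 5.11 points (2.86 to 7.38). Regions within 1 kb of a TSS held it in 2.81%.

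Composition and copy number both moved with this share. The windows around the summits in deserts had a median GC content of 46.8%, against 54.2% for the nearer intergenic and 50.7% for the intronic regions. Among single-copy regions the motif share was 40.3% in the deserts (38.4 to 42.3), while 14.2% of the multi-copy gene-desert regions held it (11.4 to 17.7). The single-copy difference from the nearer intergenic regions was 9.01 points (6.62 to 11.4). Compared within 6 bins of GC content, a comparison chosen after the values were seen, weighted by the single-copy gene-desert regions in each, the excess over the nearer intergenic regions was 2.61 points (0.00696 to 5.21). The same comparison with intronic regions gave 2.89 points (0.603 to 5.18). Both single-copy differences were thus smaller at matched GC content, and that from the nearer intergenic regions barely cleared counting error.

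**Figure D3:**
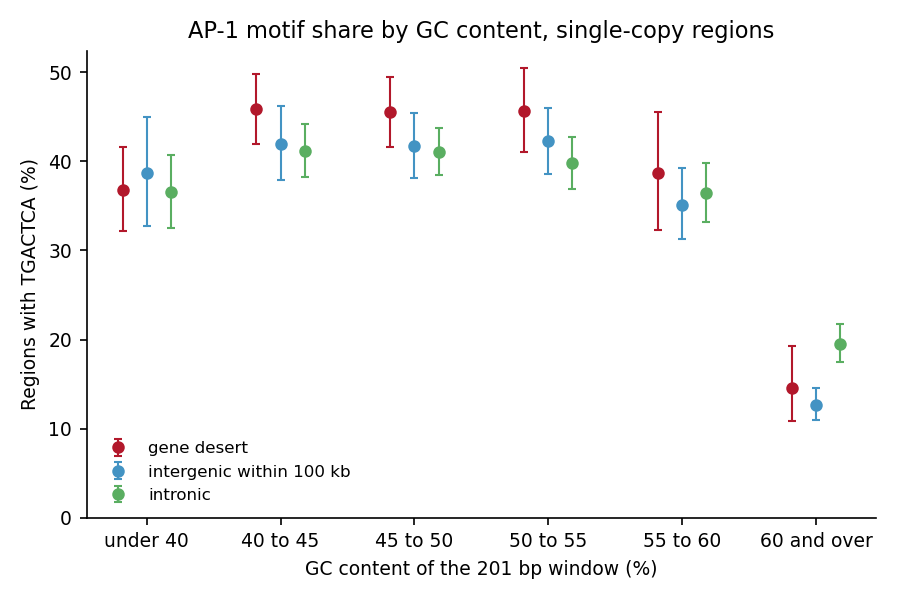
Share of single-copy regions with TGACTCA within 100 bp of the summit (y, %) by GC content of the window (x, %), with 95% Wilson intervals as bars. Gene-desert regions were above the nearer intergenic regions in 5 of 6 bins and above the intronic regions in 5 of 6, with intervals that mostly overlap, and in the deserts the share was 45.5% at 45 to 50% GC and 14.6% at 60% GC or more.

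With distance from genes the share stayed level once repeats were left out. Among all gene-desert regions it was 36.3% from 100 to 200 kb, 39.1% from 200 to 500 kb, 33.6% from 500 kb to 1 Mb and 25.9% beyond 1 Mb. Among single-copy regions the values were 39.4%, 41.2%, 41.1% and 40.4%, which lie within each other's intervals. Beyond 1 Mb 46.1% of the regions were single-copy, against 87.9% from 100 to 200 kb.

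Regions with the motif were slightly stronger. Among single-copy gene-desert regions, the median fold enrichment with TGACTCA was 6.41 in replicate 1 (6.24 to 6.58) and 8.16 in replicate 2 (7.93 to 8.38). Without it, the medians were 6.06 (5.89 to 6.24) and 7.48 (7.25 to 7.70). With the single-copy regions split into 5 equal groups by fold enrichment, the share with the motif went from 35.6% in the weakest to 45.1% in the strongest when ranked in replicate 1, and from 36.6% to 45.8% when ranked in replicate 2. The rise was not even, since the middle group of replicate 1 had 35.8%, but the intervals of the weakest and strongest groups do not overlap in either replicate. Of the 5 strongest regions with the motif, 1 matched mitochondrial DNA, at chr4:12640231-12640691 with 59.1 and 56.8. The others were those near ADGRF1, SLITRK5, AKR1E2 (20.3 and 26.2) and ARRDC4 (23.2 and 23.1), and the region near AKR1E2 lies on the KLF6 side of that gene.

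The spelling TGANTCA, which admits any central base and so includes TGACTCA on both strands, was found in 44.97% of the gene-desert regions (43.2 to 46.8) and in 25.1% of all open regions. The cAMP response element TGACGTCA, bound by CREB and ATF proteins, was in 0.567%, against 0.0833% of flanks. All open regions held it in 1.46%, and those within 1 kb of a TSS in 2.54%. The differences from the nearer intergenic regions, −0.304 points (−0.682 to 0.106), and from the intronic regions, −0.0877 points (−0.400 to 0.291), were within counting error.

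The CTCF core was rare in gene deserts. It lay within 100 bp of 75 summits, or 2.50% (2.00 to 3.12), beside 5.28% of all open regions and 0.417% of the flanking windows. The nearer intergenic regions held it in 6.64%, a difference of −4.14 points for the deserts (−5.05 to −3.21). Among single-copy regions within bins of GC content, this difference shrank to −1.09 points (−1.84 to −0.343), and that from intronic regions was 0.0372 points (−0.628 to 0.702). Regions with the core had a median GC content of 62.7%. The strongest with the core lay 158 kb from PARP11 on the side of CCND2, the cyclin D2 gene, at chr12:4031011-4031626 with 17.0 and 16.6. It was followed by a multi-copy region 52 bp from the TSS of LINC00680 with 12.6 and 17.9, and by one 111 kb from BHLHE40, a circadian repressor gene, with 16.3 and 13.8.

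The most frequent of the other motifs were those of TEAD, RUNX and helix-loop-helix factors. ACATTCC, bound by the TEAD factors of the Hippo pathway, was in 11.2% of gene-desert regions (10.2 to 12.4), against 3.25% of flanks and 6.45% of all open regions. AACCACA, bound by RUNX factors, was in 9% (8.03 to 10.1) against 3.62% of flanks and 5.31% of all open regions. The E-box CAGCTG, bound by basic helix-loop-helix factors, was in 14.3% (13.1 to 15.6) against 7.38% of flanks, which is close to the 14.6% of all open regions. Within bins of GC content none of these differed from the nearer intergenic regions beyond counting error, at 0.0130, 0.257 and −0.513 points. The letters ACATTCC contain CATTCC and occur in 14 windows of the CATTCC family.

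Motifs of promoters were less frequent than at a TSS but more frequent than in the flanks. GGGGCGGGG, bound by SP and KLF factors, was in 1.43% of gene-desert regions, in 23.6% of regions at a TSS and in 0.217% of flanks. CCGGAAG, bound by ETS factors, was in 2.63%, 14.3% and 0.517%. Of the 79 gene-desert regions with CCGGAAG, 29 were multi-copy, and it was in 1.98% of the single-copy and 6.16% of the multi-copy gene-desert regions. TGTTTAC, bound by forkhead factors, was in 3.17%, the same as in the flanks, and CATTGTT, bound by SOX factors, was in 3.67% against 4.18% of flanks. AGATAAG, bound by GATA factors, was in 2.57% against 2.78% of flanks. For C/EBP factors the letters TTGCNNCAA gave 2.10% against 2.17%. CCAATCA, bound by NFY, was in 2.63% against 2.38%. ATGCAAAT, bound by OCT factors, was in 1.23% against 1.77%. All 4 were thus close to or below their flanks, and the motifs of NFI, the glucocorticoid receptor, NF-kB, the p53 family, GRHL and NRF1 were each in at most 0.633% of the regions. These matches are descriptions of letters and not of binding.

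Many gene-desert regions lay in lncRNA genes. Of the 3000, 1148 were inside an annotated lncRNA gene, or 38.3% (36.5 to 40.02), beside 18.1% of all open regions. The lncRNA genes cover 29.4% of the eligible desert bases, and the nearer intergenic regions lay in them in 28.9% (27.6 to 30.2). A smaller part lay at lncRNA promoters. Within 1 kb of a canonical lncRNA TSS lay 235 (7.83%, 6.92 to 8.85), against 15.0% of the nearer intergenic regions (14.02 to 16.1). The share of desert bases within that distance was not computed, so whether 7.83% is above its base share is not known. Seen from the other side, 244 of 4406 lncRNA TSSs in the desert sequence (5.54%) had an open region within 1 kb.

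Regions at a lncRNA TSS differed in sequence from the rest. Their median GC content was 62.7%, against 46.3%, and 16.6% of them held TGACTCA (12.4 to 21.9), against 37.9% (36.1 to 39.7). Their fold enrichment was 6.41 and 8.16 at the median, against 6.24 and 7.68, with overlapping intervals. The 5 strongest comprised a mitochondrial match near IRS2 on chromosome 13, the multi-copy regions near LIPI and FOXD4L5, and 2 single-copy regions. The latter lay 179 bp from the TSS of ENSG00000289462 in the gap between CCNH and TMEM161B (20.9 and 21.7), and 49 bp from that of LINC02226 between MTRR and SEMA5A (19.1 and 21.9). The second is shown because it is an example of a GC-rich lncRNA promoter with no match to TGACTCA.
LINC02226, chr5:8457459-8457559: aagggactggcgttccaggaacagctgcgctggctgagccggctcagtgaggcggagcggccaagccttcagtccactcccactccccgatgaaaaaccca

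The regions were then counted by gap, the stretch between 2 neighbouring protein-coding gene bodies. Of 2323 gaps with eligible bases, 1024 held at least 1 gene-desert region and 1299 held none. Among the 265 gaps with at least 1 eligible Mb, 208 held a region and 57 did not. Of the regions, 50% lay in 194 gaps, and the 100 gaps with most regions held 34.4% on 15.9% of the eligible bases. These 100 gaps were ranked by the same count, so an excess over their share of bases follows in part from the choice. Concentration beyond random placement was not tested. In 421 gaps there was 1 region, 40 gaps held 10 or more, and 29 gaps held 10 or more single-copy regions.

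The 10 gaps with most regions were of 2 kinds. In 6 of them nearly all regions were multi-copy. The short arm of chromosome 21 before TPTE held 47, of which 3 were single-copy, and the gap from SRGAP2C to H3-7 across the centromere of chromosome 1 held 33, of which 1 was. The gaps from CNTNAP3C to FOXD4L5 (21), from CWH43 to DCUN1D4 (20) and from ENSG00000284209 to SHCBP1 (19) had 0 single-copy regions, and that from PLD5P1 to ZNF33B (17) had 2. In the other 4 gaps, from MYC to GSDMC, SOX9 to SLC39A11, KLF4 to ACTL7B and CITED2 to NMBR, 34 of 34, 19 of 19, 19 of 19 and 14 of 17 were single-copy.

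**Figure D4:**
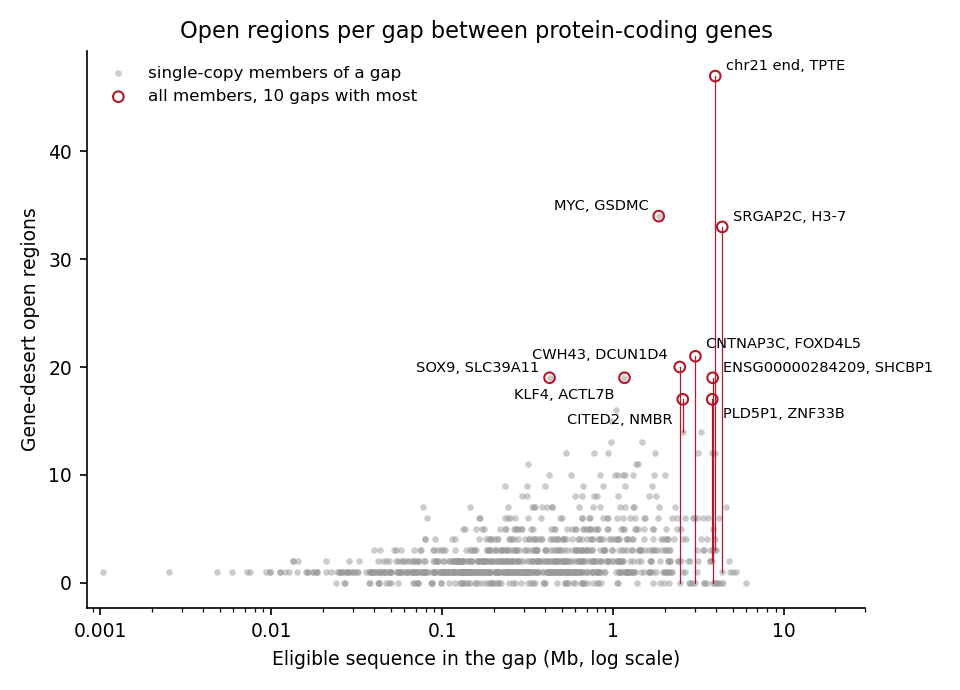
Gene-desert open regions per gap (y) by eligible sequence in the gap in Mb (x, log scale), for the 1024 gaps with a region. Grey points count single-copy regions, red circles count all regions for the 10 gaps with most, and red lines join the counts, which are the same for MYC to GSDMC, SOX9 to SLC39A11 and KLF4 to ACTL7B and fall to 3 or below in the 6 repeat-rich gaps.

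MYC encodes a transcription factor of cell growth, and the gap from it to GSDMC on chromosome 8 held 34 regions in 1.85 eligible Mb, or 18.4 per Mb against 3.10 for all desert sequence. Their fold enrichment ran from 3.18 to 23.4 in replicate 1, with a median of 6.32, and from 4.08 to 23.8 in replicate 2, with a median of 8.03. The strongest lay 373 kb from the MYC TSS at chr8:128108928-128109452. Of the 34, 33 were inside lncRNA genes, 14 held TGACTCA and 0 the CTCF core. Among all single-copy gene-desert regions 40.3% were in lncRNA genes, 40.3% held TGACTCA and 2.33% the CTCF core. The share of bases in lncRNA genes was not computed gap by gap, here or for the gaps below.

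The gap from SOX9 to SLC39A11 was denser, with 19 regions in 0.425 eligible Mb, or 44.7 per Mb. It had the highest single-copy density of the gaps with at least 0.2 eligible Mb. Fold enrichment ran from 4.25 to 15.7 in replicate 1 (median 8.32) and from 4.71 to 20.8 in replicate 2 (median 8.84). The regions were a median of 8.61 kb apart and all 19 were inside a lncRNA gene, and 10 of them held TGACTCA. On the other side of SOX9, toward KCNJ2, 13 regions were spread over 1.75 eligible Mb, at 7.42 per Mb and a median spacing of 108 kb. There the medians were 9.36 and 11.9, the highest values were 20 and 22.7, and 5 held TGACTCA. The KCNJ2 side, which was chosen after the values were seen, was thus less dense than the other but above the density of all desert sequence, and the ranges of fold enrichment overlapped.

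**Figure D5:**
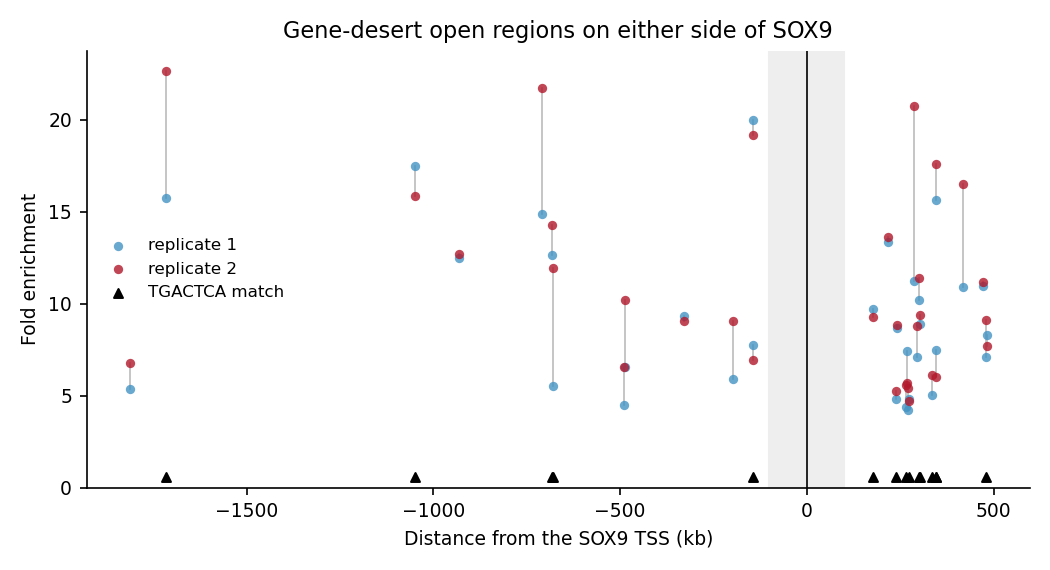
Fold enrichment (y) of the gene-desert regions on either side of SOX9 by distance from its TSS in kb (x), with blue points for replicate 1, red points for replicate 2, a grey line joining both values of a region and black triangles at regions with TGACTCA. The shaded 100 kb to either side of the TSS is outside the deserts, and the 19 regions on the right lie between 177 and 482 kb.

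KLF4 encodes a zinc finger factor of epithelial differentiation. The 19 regions from it to ACTL7B, a testis actin-like gene, had medians of 5.20 and 7.86, and a strongest region of 11.8 and 14.7 at 304 kb from ACTL7B. Of these 19, 0 were in a lncRNA gene and 8 held TGACTCA. CITED2 encodes a transcriptional coregulator, and the gap from it to NMBR had 17 regions in 2.56 eligible Mb with medians of 5.54 and 7.70.

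By single-copy regions, the next gaps were those from JAG1 to BTBD3 (16) and from NYAP2 to IRS1 (15), named after their values were seen. JAG1 encodes a Notch ligand and its gap had 15.3 regions per Mb with medians of 4.85 and 6.80. IRS1 encodes an adaptor of insulin signalling and its gap had 15.5 per Mb with medians of 6.76 and 9.06 and a strongest region of 15.4 and 18.1 at 321 kb from IRS1. In each of these 2 gaps, 7 regions held TGACTCA. The gap from JUN, an AP-1 subunit gene, to FGGY was short, with 8 regions in 0.313 eligible Mb (25.6 per Mb) and TGACTCA in 4, and was also named after its values were seen.

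The 5 largest gaps without any gene-desert region included 6.05 eligible Mb at chr7:57473560-63998848 (ZNF716 to ZNF722) and 5.14 at chrX:57910459-63347227 (ZXDA to SPIN4). The others had 2.997 (GBE1 to CADM2, chromosome 3), 2.81 (GOT2 to CDH8, chromosome 16) and 2.73 (EYS to ADGRB3, chromosome 6). The copy number of the sequence in these gaps was not computed, so they cannot be read as closed single-copy sequence. At the weakest listed peaks' 16 and 13 fragments, weaker sites there would not have been listed. Eligible bases were not filtered for copy number, so repeated sequence can count as eligible in these gaps.

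Flanking genes were described by 4 lists. Gaps next to a developmental transcription factor numbered 142, and 77 of them (54.2%) held a region, beside 44.1% of all gaps. Their single-copy regions numbered 3.49 per Mb, beside 2.62 over all gaps. Gaps next to a secreted signal or growth factor receptor gave 38 of 62 (61.3%) and 2.81 per Mb, and those next to an extracellular matrix gene 22 of 34 (64.7%) and 4.69 per Mb. Gaps next to an adhesion or synaptic surface protein gave 52 of 90 (57.8%) but 1.28 per Mb. They were also the longest of these gaps, at a median of 0.949 eligible Mb against 0.149 over all gaps. The gaps of the other lists were longer than that as well, at medians of 0.419 (developmental factors), 0.441 (signals and receptors) and 0.240 (matrix genes). Among gaps with at least 1 eligible Mb, of which 78.5% held a region, the shares were 75% for developmental factors (21 of 28), 66.7% for signals and receptors (6 of 9), 86.4% for adhesion proteins (38 of 44) and 3 of 3 for matrix genes. The higher shares beside the first pair of lists were thus not seen among the long gaps. A gap can count for several lists, and no list was tested.

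The regions farthest from a protein-coding TSS were multi-copy. The 5 farthest, at 4.81 to 5.37 Mb, lay on the short arms of chromosomes 21 and 22, and none was single-copy. The farthest had a fold enrichment of 5.54 and 5.21, and one of the 5 lay 316 bp from the TSS of the lncRNA gene ENSG00000279064. The farthest single-copy region outside chromosome 21 was 2.54 Mb from PCDH7 at chr4:33262859-33263116, with 5.89 and 5.66. One region 2.18 Mb from TENM3 lay 736 bp from the TSS of ENSG00000287083 and had a GC content of 69.7%, with 5.37 and 7.02. This pair was chosen after the values were seen.

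Values on the 2 sides of the 100 kb limit overlapped. Just inside, 4 regions lay 100.15 to 100.27 kb from a TSS, near IGF1R, ENTREP2, ITPRID2 and ZSCAN2, with mean fold enrichments from 6.12 to 10.8. The 5 just outside, near DIP2C, RYBP, DEFB115, YWHAZ and DRD1, lay at 99.6 to 99.9 kb with means from 4.32 to 8.82.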

How the data were processed

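ATAC-seq was performed on 2 biological replicates of B2B cells. The authors aligned reads to hg38, removed duplicates with their own code and called peaks in each replicate alone with all remaining fragments kept. The submitters' processing notes name Bowtie2 2.4.4, SAMtools 1.13 and MACS2 2.2.7.1. The Tn5 shift and the q limit are not given in the sources used here. Each deposited list gives the fold enrichment at the summit (a ratio to local background), −log10 p and −log10 q values and a display score, which was not used. Fragments at the summit were solved from the deposited fold and −log10 p. They came out whole, within 0.01 of the deposited p, for 99.9% of peaks in each list.

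Peaks on chromosomes 1 to 22 and X were merged (1 bp overlap), and the strongest summit of each region was placed against GENCODE 44. Regions were classed as gene desert, intergenic within 100 kb, intronic, exonic or within 1 kb of a TSS. Motifs were searched on both strands within 100 bp of the summit. Copy number used 31-letter words, and similar windows and mitochondrial matches used BLAST 2.17.0 (E of at most 1e-15 over 100 bp, and of at most 1e-10). Shares have Wilson, differences Newcombe, densities Poisson and medians order-statistic 95% intervals. With 1 condition no test between groups was made. Python 3.11.15, numpy 2.4.6, pandas 2.3.3, scipy 1.17.1, numba 0.67.0, networkx 3.6.1 and matplotlib 3.10.9 were used, and the steps were tested on simulated data.

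The 3000 regions, the motifs and the gene lists were chosen with earlier results of these data known. Named regions were the 10 strongest without a mitochondrial match, the 5 farthest, the 5 strongest at a lncRNA TSS, the 5 strongest with TGACTCA, the 3 strongest with the CTCF core and those at the 100 kb limit, of which 1 is not reported here. Named gaps were the 10 with most regions and the 5 largest empty ones. Others are named as chosen after their values were seen. Alternatives were a stricter q limit, 50% overlap, any annotated TSS, a 200 kb distance, other motif windows and spellings, and leaving out each replicate.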

Additional observations from a re-analysis of the deposited data

How the results depend on the processing

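With a limit of 200 kb in place of 100 kb there were 1711 regions, 6.76% of all open regions and 2.37 per Mb, in 546 gaps, with the CTCF core in 1.87% and a median GC content of 45.3%. With the TSS of any annotated transcript the share was 9.97% and the density 2.82 per Mb, with the core in 1.90% and a GC content of 46.3%. A reciprocal overlap of 50% gave 2.89 per Mb. Leaving out the multi-copy regions, an alternative chosen after seeing the data, gave a share of 10.7%, a density of 2.62 per Mb, TGACTCA in 40.3% and 40.3% in lncRNA genes. TGACTCA was in 24.5% within 50 bp of the summit and in 42.2% anywhere in the region, TGANTCA was in 44.97%, and the CTCF core was in 1.23% and 3.47% with those windows. The GC content of the whole region was 46.5%. Leaving out each replicate in turn gave densities of 3.49 to 4.45 per Mb, median fold enrichments of 5.89 to 6.34 and TGACTCA shares of 33.8% to 34.7%, as a list alone needs no peak in the other.

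The difference in TGACTCA share from the nearer intergenic regions stayed above 0 in each alternative run for it, which do not include the 200 kb limit. It was 2.61 points within bins of GC content, 4.26 within 50 bp of the summit and 9.40 with TGANTCA, all outside the interval of 4.66 to 8.99 given in the report. No paired analysis was possible because there is 1 group. Depth limits the lists to summits of at least 16 and 13 fragments, and listed signal in multi-copy sequence cannot be tied to 1 locus.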

Other observations

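Among single-copy gene-desert regions, TGACTCA was less frequent beside the TEAD motif ACATTCC than without it, at 29.6% (24.7 to 35.05) against 41.7% (39.7 to 43.8). Beside the RUNX motif AACCACA the share was 34.1% against 41.0%, and beside the E-box CAGCTG it was 44.9% against 39.5%, both with intervals that overlap. These pairs were looked at after the values were seen. Of the 75 gene-desert regions with the CTCF core, 9 also held TGACTCA.

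Further families of similar sequence were seen. One had 28 of its 155 regions in deserts and 82 in introns, and held TGACTCA in 9 of the 28. One of 17 lay wholly on chromosome 21 with medians of 5.20 and 5.21. Another of 15, on 6 chromosomes, had all of its regions in deserts and medians of 6.76 and 8.23. A family of 7 GC-rich regions, 5 of them on chromosome 9, held the NRF1 motif in 6, of 15 gene-desert regions with that motif in all.

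Beside TGFB2, which encodes a TGF-beta ligand, the gap to LYPLAL1 held 7 regions with high medians of 11.8 and 14.02, and 1 of them held TGACTCA. The gap from TRIB1 to LRATD2 held 12 regions with lower medians of 5.98 and 5.78, and 10 of them held TGACTCA. Both gaps were named after their values were seen.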
